A study of Mus musculus with 12 samples.

Results

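The 36 genes for tRNA synthetases and their scaffold proteins studied here were measured in mouse embryonic fibroblasts (MEF), cells of the connective tissue cultured from embryos, after 6 h with 100 nM halofuginone (HF). They were found by matching symbols to the Ensembl IDs of the count tables and are 36 of the 55536 IDs listed. Among them, 19 encode cytosolic enzymes or their subunits, 15 encode mitochondrial enzymes (symbols ending in 2), and Aimp1 and Aimp2 encode scaffold proteins. The proline enzymes Eprs and Pars2 are not members. HF is known to occupy the prolyl-tRNA synthetase site of the EPRS protein, and is not known to target the members. The 4 groups had 3 libraries each: total RNA of HF cells, total RNA of control cells, ribosome-protected footprints (RPF) of HF cells and RPF of control cells. HF and control cells alike spent these 6 h in high-glucose DMEM with dialyzed fetal bovine serum, from which small molecules such as free amino acids are largely removed, so the controls carry that medium change too. The labels give no genotype, strain or passage of the MEF. They also leave unstated whether the 3 libraries of a group are separate cultures, so the spread that the p-values rest on may be technical.

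A tRNA synthetase attaches its amino acid to the tRNAs that carry the matching anticodons. Cytosolic enzymes supply the ribosomes that read nuclear messenger RNAs, and most mitochondrial enzymes are products of separate nuclear genes that supply the ribosomes inside mitochondria. GARS and KARS serve both compartments. Uncharged tRNA is known to activate the kinase GCN2, which phosphorylates the initiation factor eIF2. The transcription factor ATF4, made in larger amounts when eIF2 is phosphorylated, is known to bind C/EBP-ATF response elements, and several cytosolic synthetase genes are known ATF4 targets.

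Library totals ran from 1017651 to 1697554 counts in total RNA of HF cells and from 718096 to 1295434 in total RNA of control cells. In footprints they ran from 562794 to 1958356 in HF cells and from 724609 to 2527791 in control cells. All 8 fibroblast markers on the list (collagens, Vim, Pdgfra, Pdgfrb, Thy1 and Fn1) had counts in each group. Their summed level in total RNA was 9217 to 9459 CPM in HF cells and 7339 to 7444 CPM in control cells. In footprints it was 11060 to 11760 CPM in HF cells and 15230 to 16390 CPM in control cells. CPM is a gene's count per megaread of its library. For the markers the whole library total was used, without scaling. For all other genes the library size was that of the genes passing the filter on low counts (protein-coding genes in footprints). It was scaled by TMM, a trimmed mean of ratios between libraries, so marker levels and member levels are on slightly different scales. Summed haematopoietic markers reached 5.90 CPM and epithelial markers 3.55 CPM in the libraries where they were highest, with Adgre1 and Krt8 at 0 in each group. Endothelial markers summed to 5.14 to 15.7 CPM in total RNA of HF cells and 0 to 1.54 CPM in control cells, and in footprints to 3.12 to 11.2 CPM in HF cells and 0 to 3.96 CPM in control cells. Of these 3 markers 1 or 2 had counts in each group, and Pecam1 was at 0 in all. Neural markers summed to 5.90 to 28.3 CPM in total RNA of HF cells and 18.6 to 39.4 CPM in control cells, and in footprints to 23.4 to 53.3 CPM in HF cells and 56.6 to 83.4 CPM in control cells. Of these 3 markers 1 or 2 had counts, and Sox10 was at 0 in all groups. Their part in the results was not tested. These are bulk samples, in which fewer cells of a type and less RNA per cell cannot be told apart.

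With HF, the RNA of 9 of the 19 cytosolic enzymes rose and that of 2 fell, while 8 did not pass the test. Of the 9145 genes tested in total RNA, 43.7% were called, 22.2% higher and 21.4% lower. The median log2 fold change, HF over control, was 0.32 over the cytosolic enzymes and -0.02 over all genes tested. Footprints were higher for 10 cytosolic enzymes and lower for 2, with 7 not called, against a background of 43.3% called among 8373 protein-coding genes, 22.4% higher and 20.9% lower. Their median log2 fold change in footprints was 0.36, and that of all genes was -0.02. Scaling within each assay holds the median of all genes near 0. Changes in RNA, footprints and efficiency are therefore relative to the typical gene, and a change in total RNA or total translation was not measured. The same 9 cytosolic genes rose in both assays (Aars, Cars, Iars, Lars, Nars, Rars, Sars, Tars and Yars), and Kars and Qars fell in both. The exception was Hars, called in footprints alone. The share of all genes called alike in both assays was not counted, so this agreement has no background beside it. Calls are edgeR quasi-likelihood tests with Benjamini-Hochberg adjusted p below 0.05 over all genes tested, and all 36 members passed the filter on low counts in each comparison.

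The cytosolic members together made up 0.750% ± 0.0116 of the counts of nuclear protein-coding genes in total RNA of HF cells and 0.536% ± 0.0107 in control cells (SD, n = 3 each). In footprints their share was 1.27% ± 0.0363 in HF cells and 0.870% ± 0.00532 in control cells. The 14 mitochondrial members other than Lars2 held 0.0472% ± 0.00190 of these counts in total RNA of HF cells and 0.0556% ± 0.00236 in control cells. Their footprint share was 0.0564% ± 0.00220 in HF cells and 0.0685% ± 0.00121 in control cells. In both assays the cytosolic share was higher and the mitochondrial share lower in every HF library than in any control library. These sums were not tested, because the genes with many counts dominate them.

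**Figure D1:**
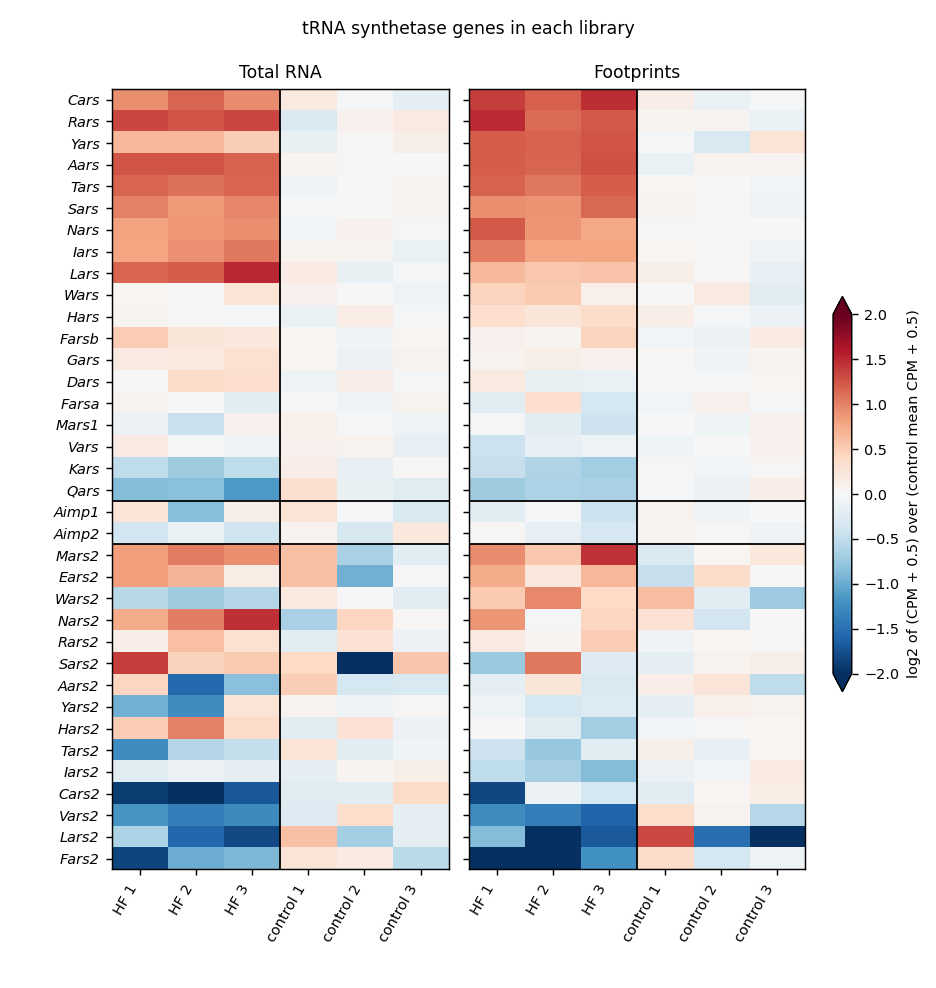
Each cell gives the log2 of a library's CPM over the mean CPM of the 3 control libraries of that assay, with 0.5 CPM added to both and colours capped at 2 in either direction. HF libraries stand left of control libraries, and black lines part cytosolic, scaffold and mitochondrial genes. Red fills the HF columns of the upper 9 cytosolic rows, the mitochondrial rows are mixed, and Lars2 varies between control libraries.

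Promoter sequences are given because several of the genes that rose carry the letters TGATGNAA, the core of the C/EBP-ATF response element, near their start. RefSeq promoter windows of build GRCm38.p6, 300 bases from 250 before to 50 after a gene's start, were matched for 28 of the 36 members. Both strands were searched. TGATGNAA was found in the windows of 5 of 12 cytosolic members with a window (Aars, Gars, Iars, Tars and Yars) and of 0 of 14 mitochondrial members. For comparison, 3.97% of all 32851 windows and 2.11% of the 8921 windows of protein-coding genes tested in total RNA held it. Among cytosolic members with a window, 4 of the 5 whose RNA rose held the motif, Sars being the one without, and 1 of the other 7, Gars. Cars, Lars, Nars and Rars, whose RNA also rose, had no window, so these counts leave them out. The window of Eprs, which is not a member and was higher in both assays, held 0 matches to TGATGNAA. The shorter TGATG, which TGATGNAA contains, was in the windows of 8 of 12 cytosolic (66.7%) and 4 of 14 mitochondrial members (28.6%), in 39.3% of all windows and in 26.2% of those of protein-coding genes tested. A match is a string of letters in the window and is no measure of binding. A site of each of these 5 genes follows with 10 bases on either side, each on the strand that reads TGATGNAA, with the match in capitals.
Aars, chr8:111033841-111033868, minus strand: cagagcgctcTGATGAAAagtgacccgc
Gars, chr6:55037961-55037988, minus strand: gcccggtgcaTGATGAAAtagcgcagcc
Iars, chr13:49682127-49682154, minus strand: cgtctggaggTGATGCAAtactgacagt
Tars, chr15:11399656-11399683, plus strand: gctaaccagcTGATGCAAcgggactcct
Yars, chr4:129189896-129189923, plus strand: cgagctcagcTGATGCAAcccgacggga

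The gene start around which a RefSeq window is set need not be the first base of the gene's annotated span. For Aars and Yars it lies inside that span. The Aars match shown lay at bases 10 to 17 counted from that gene start. In Tars, a gene on the minus strand, the match lay 15 to 8 bases before the start. The 250 bases before the start of Tars are shown on the gene's own strand, where the motif reads TTGCATCA (in capitals).
Tars, chr15:11399659-11399908, minus strand: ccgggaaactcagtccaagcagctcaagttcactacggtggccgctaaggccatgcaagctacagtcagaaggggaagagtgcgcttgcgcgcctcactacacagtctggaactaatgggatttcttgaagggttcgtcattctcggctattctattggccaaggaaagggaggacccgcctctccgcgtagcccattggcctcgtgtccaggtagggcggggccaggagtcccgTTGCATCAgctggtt

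Rars, the arginine enzyme and a member of the multi-tRNA synthetase complex, had the largest fold change in RNA among cytosolic members. Its RNA level was 389.6, 367 and 389.7 CPM in HF cells, against 125, 162 and 173 CPM in control cells. Its footprints were at 1491, 1168 and 1246 CPM in HF cells, against 552, 553 and 485 CPM in control cells. The groups did not overlap in either assay. The log2 fold changes were 1.33 (SE 0.13) in RNA and 1.30 (SE 0.10) in footprints, with edgeR adjusted p of 3.1e-14 and 1.2e-12.

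Aars, the alanine enzyme (ENSMUSG00000031960, chr8:111027778-111055569), held 959, 953 and 904 CPM of RNA in HF cells, against 415, 386 and 395 CPM in control cells. Footprints on Aars came to 1738, 1666 and 1807 CPM in HF cells, against 679, 788 and 773 CPM in control cells. Every HF library lay above every control library, and the fold was nearly equal in both assays, 2.35 in RNA (adjusted p 7.4e-18, edgeR) and 2.33 in footprints (adjusted p 1.8e-13). Its annotated span shares 3974 bases with Ddx19b, and whether reads there were assigned to Aars is not given in the sources used here.

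Tars, the threonine enzyme, had 291, 281 and 293 CPM of RNA in HF cells, against 122, 131 and 137 CPM in control cells. Its footprint levels were 1009.5, 930.1 and 1035 CPM in HF cells, against 460.2, 448 and 431 CPM in control cells. Again the groups were fully apart, with log2 fold changes of 1.15 in both assays (SE 0.13 in RNA and 0.09 in footprints; edgeR adjusted p 3.0e-11 and 9.8e-12).

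For Cars, the cysteine enzyme, RNA stood at 223, 261 and 225 CPM in HF cells, against 134, 114 and 102 CPM in control cells. Cars footprints were 459, 403 and 487 CPM in HF cells, against 192, 159.9 and 173 CPM in control cells. No HF library overlapped a control library. Its footprint fold of 2.56 (log2 1.36, SE 0.13, edgeR adjusted p 1.4e-10) was the largest among cytosolic members, beside 2.01 in RNA (adjusted p 2.2e-08).

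Sars, the serine enzyme, had RNA levels of 560.3, 505 and 550.4 CPM in HF cells, against 271, 278 and 289.8 CPM in control cells. Ribosome footprints on it were at 1326, 1293 and 1536 CPM in HF cells, against 717, 700.5 and 659 CPM in control cells. Both assays separated the groups without overlap. The log2 fold change was 0.95 (SE 0.11) in RNA and 0.99 (SE 0.09) in footprints, at edgeR adjusted p of 1.4e-11 and 7.9e-11. Iars (isoleucine) rose by 0.93 in RNA and 0.88 in footprints on the log2 scale, and Nars (asparagine) by 0.87 and 0.98.

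Kars and Qars, the lysine and glutamine enzymes of the multi-tRNA synthetase complex, were the cytosolic members that fell. Qars RNA was at 68.6, 69.8 and 56.5 CPM in HF cells, against 157, 113 and 106 CPM in control cells. Footprints on Qars were at 129.98, 137 and 136 CPM in HF cells, against 209.6, 197 and 235 CPM in control cells. HF libraries lay below all controls in both assays, and the log2 fold change was -0.97 (SE 0.19) in RNA and -0.66 (SE 0.15) in footprints, with edgeR adjusted p of 2.2e-05 and 0.00049. Kars RNA measured 197, 172 and 197 CPM in HF cells, against 308, 251 and 285 CPM in control cells. Its footprints came to 464, 422 and 392 CPM in HF cells, against 647, 613 and 649 CPM in control cells. The Kars groups were apart as well, at -0.58 in RNA and -0.57 in footprints (SE 0.12 and 0.10; edgeR adjusted p 9.6e-05 and 4.1e-05).

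Of the remaining cytosolic members, 7 were called in neither assay. Gars (glycine), which holds the motif, had a log2 fold change of 0.23 in RNA (edgeR adjusted p 0.056) and 0.09 in footprints, although its RNA libraries did not overlap between groups. Vars (valine) was at 0.02 in RNA and -0.24 in footprints (adjusted p 0.055). Wars (tryptophan) was at 0.12 and 0.36, and Dars (aspartate) at 0.27 and 0.00. Farsa and Farsb, the 2 subunits of the phenylalanine enzyme, were at -0.06 and 0.32 in RNA and at -0.06 and 0.21 in footprints. Mars1 (methionine), whose span shares 71 bases with Ddit3, was at -0.13 in RNA and -0.18 in footprints. Hars (histidine) had a log2 fold change of 0.02 in RNA and 0.31 in footprints (adjusted p 0.033). Leaving out RPF HF library 1 or 3, or RPF control library 2 or 3, took the Hars call away, at 0.23 to 0.30 with adjusted p of 0.063 to 0.18.

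**Figure D2:**
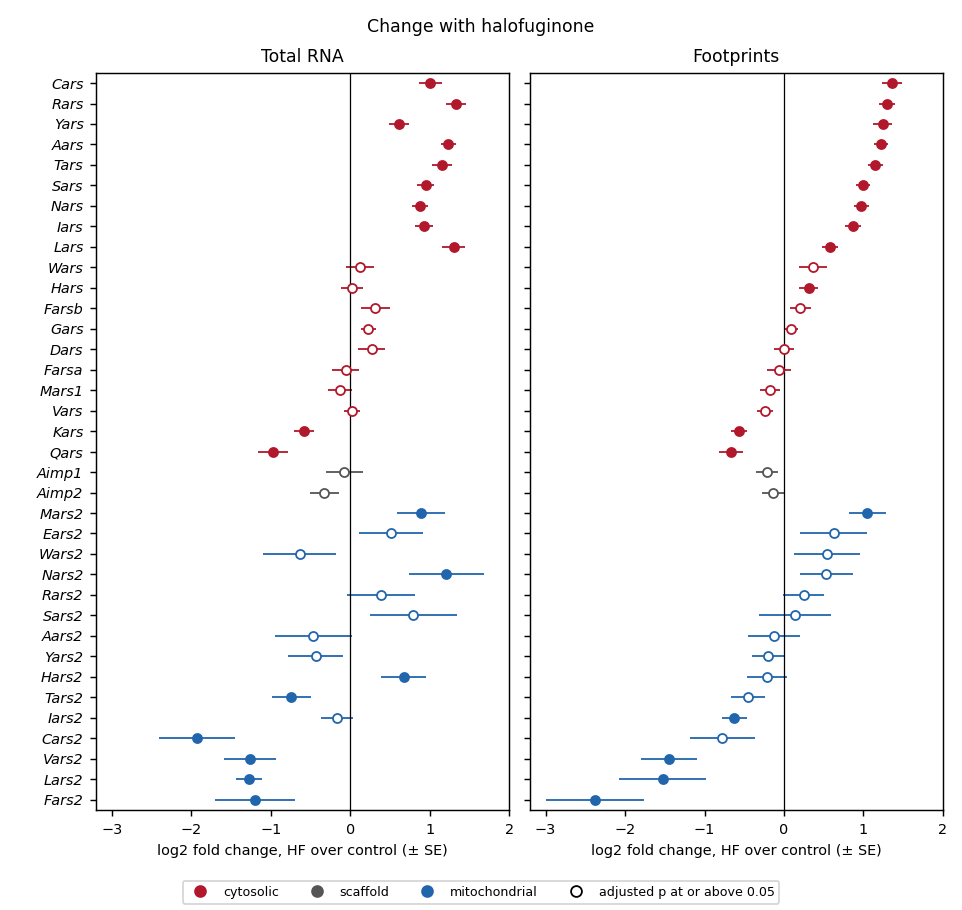
Points give the log2 fold change, HF over control, of each member in total RNA and in footprints, and bars its standard error (n = 3 libraries a group). Filled points had an edgeR adjusted p below 0.05. The filled cytosolic points above 0 run from 0.61 for Yars to 1.33 for Rars in total RNA, while filled mitochondrial points stand on both sides of 0.

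By place in the cell, the multi-tRNA synthetase complex held 3 cytosolic members whose RNA rose (Iars, Lars and Rars), 2 whose RNA fell (Kars and Qars) and 2 not called (Dars and Mars1). The same 7 genes had the same calls in footprints, so 42.9% were higher and 28.6% lower in each assay. Outside the complex, 6 of 12 rose in RNA (50%) and 7 of 12 in footprints (58.3%), and 0 fell in either assay in the main edgeR fits. Of all genes tested, 22.2% were higher and 21.4% lower in RNA, and 22.4% and 20.9% in footprints. Both groups of enzymes are small, and the difference of their shares from those of all genes was not tested. At an unadjusted p under 0.05, 0 of the 12 enzymes outside the complex were lower in RNA and 1, Vars, in footprints. Vars footprints were called lower in some alternative edgeR fits and not in others. Their adjusted p was 0.039 with a minimum count of 30 and 0.035 with the replicate block, so the 0 in footprints depends on the fit. The complex's scaffold proteins AIMP1 and AIMP2, which hold the enzymes together, did not pass. Aimp1 RNA was at 79.2, 36.3 and 71.8 CPM in HF cells, against 79.7, 64.8 and 53.6 CPM in control cells. Its footprints were at 177, 199 and 152 CPM in HF cells, against 215, 195 and 202 CPM in control cells. Aimp2 had 83.6, 99.2 and 82.4 CPM of RNA in HF cells, against 114, 87.4 and 126 CPM in control cells. The groups of both genes overlapped in RNA. Aimp2 footprints were at 246, 217 and 191 CPM in HF cells, against 252, 247 and 230.5 CPM in control cells, again with overlap. Their log2 fold changes were -0.07 and -0.33 in RNA and -0.21 and -0.14 in footprints for Aimp1 and Aimp2, all with edgeR adjusted p at or above 0.145. For the scaffolds an unadjusted p under 0.05 was reached 0 times in either assay. By catalytic fold, 5 of 9 class I (55.6%) and 4 of 10 class II enzymes (40%) rose in RNA, against 22.2% of all genes. In each class 1 fell (11.1% and 10%, against 21.4%), and these shares were not tested either.

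Calls among the mitochondrial enzymes fell on both sides. In total RNA 3 of 15 were higher (20% against 22.2% of all genes), 5 were lower (33.3% against 21.4%) and 7 were not called, with a median log2 fold change of -0.44. In footprints 1 was higher (6.67% against 22.4%), 4 were lower (26.7% against 20.9%) and 10 were not called, with a median of -0.20. The difference of these shares from those of all genes was not tested. Their counts were far lower than those of the cytosolic members, from 1 to 1084 in single total RNA libraries and from 0 to 437 in footprints, and the median SE of their log2 fold changes was 0.40 in RNA and 0.33 in footprints, against 0.13 and 0.10 for the cytosolic members. Without Lars2, described below, the medians were -0.30 and -0.16. The RNA median was -0.20, -0.17 and -0.24 without HF library 1, 2 or 3 and -0.27 without control library 1, and the footprint median was -0.12 and -0.08 without HF library 1 or 3. Single libraries also carried some of the calls. The number higher in RNA was 1 without HF library 2 or control library 1 and 0 without control library 3, and the number lower in RNA was 3 without HF library 1 or control library 1.

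Cars2, the mitochondrial cysteine enzyme, had the largest fall in RNA among the members. Its RNA was at 7.04, 5.89 and 8.24 CPM in HF cells, against 23.3, 24.0 and 35.7 CPM in control cells. Its footprints were at 7.88, 26.8 and 22.7 CPM in HF cells, against 25.1, 30.03 and 32.3 CPM in control cells. RNA separated the groups, at a log2 fold change of -1.93 (SE 0.48, edgeR adjusted p 0.00066), while footprints overlapped (-0.78, adjusted p 0.12). Cars, its cytosolic counterpart, rose in both assays.

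Fars2, the mitochondrial phenylalanine enzyme, had the largest fall in footprints, which were at 3.38, 0 and 7.58 CPM in HF cells, against 23.5, 14.1 and 16.9 CPM in control cells. These values rest on 10 counts in all in HF cells and 93 in control cells. Fars2 RNA was at 5.28, 9.82 and 10.6 CPM in HF cells, against 24.2, 22.6 and 13.7 CPM in control cells. HF libraries were below controls in both assays, with log2 fold changes of -2.38 in footprints (SE 0.62, edgeR adjusted p 0.0022) and -1.21 in RNA (SE 0.50, adjusted p 0.045). The RNA call was lost on leaving out any of the HF libraries or control library 1 or 2, with values from -0.93 to -1.39 and adjusted p from 0.072 to 0.19.

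Vars2, the mitochondrial valine enzyme, fell by 1.26 in RNA and by 1.44 in footprints on the log2 scale (SE 0.33 and 0.36; edgeR adjusted p 0.0011 and 0.0013). Tars2 (threonine) fell in RNA, at -0.74 (adjusted p 0.010), but not past the threshold without HF library 1 (-0.51, adjusted p 0.11) or control library 1 (-0.58, adjusted p 0.11). Iars2 (isoleucine) fell in footprints, at -0.63 (SE 0.16, adjusted p 0.0016), and was at -0.17 in RNA (adjusted p 0.52).

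Mars2, the mitochondrial methionine enzyme, was the mitochondrial member that rose in both assays. Its RNA was at 44.0, 51.1 and 47.1 CPM in HF cells, against 37.0, 15.5 and 21.0 CPM in control cells. Footprints on Mars2 were at 84.4, 63.6 and 119 CPM in HF cells, against 35.7, 44.7 and 50.6 CPM in control cells. The groups did not overlap, at log2 fold changes of 0.88 in RNA (SE 0.30, edgeR adjusted p 0.014) and 1.05 in footprints (SE 0.24, adjusted p 0.00055). In RNA the value was 1.35 without control library 1, and the call was lost without control library 2 (0.68, adjusted p 0.072) or 3 (0.76, adjusted p 0.060).

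Nars2, the mitochondrial asparagine enzyme, had the largest rise in RNA among mitochondrial members. RNA was at 17.6, 21.6 and 29.4 CPM in HF cells, against 6.44, 14.1 and 10.5 CPM in control cells, and 28 counts in all stood behind the control values. Nars2 footprints were at 41.6, 21.7 and 30.3 CPM in HF cells, against 27.6, 17.2 and 22.5 CPM in control cells. The RNA groups were apart, at a log2 fold change of 1.21 (SE 0.47, edgeR adjusted p 0.032), and the footprint groups overlapped, at 0.54 (adjusted p 0.20). The RNA call was lost without HF library 2 or 3 or control library 1 or 3, at 0.92 to 1.26 with adjusted p of 0.053 to 0.19. Hars2 (histidine), whose annotated span shares 4 bases with that of Hars, was higher in RNA at 0.67 (adjusted p 0.047), and lost the call without HF library 2 (0.48, adjusted p 0.24), control library 1 (0.56, 0.17) or control library 3 (0.62, 0.11).

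The remaining mitochondrial members were called in neither assay. Their log2 fold changes in RNA ran from -0.64 for Wars2 (tryptophan) to 0.79 for Sars2 (serine), with Aars2, Yars2, Rars2 and Ears2 between them. In footprints the same genes ran from -0.20 for Yars2 (tyrosine) to 0.63 for Ears2 (glutamate).

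Lars2, the mitochondrial leucine enzyme, stood apart from the other members. Its RNA was at 376, 195 and 166 CPM in HF cells, against 873, 361 and 507 CPM in control cells. Its footprints were at 20.3, 6.69 and 11.4 CPM in HF cells, against 94.1, 12.9 and 5.62 CPM in control cells. The groups overlapped in both assays, with log2 fold changes of -1.28 in RNA (SE 0.17, edgeR adjusted p 2.0e-09) and -1.53 in footprints (SE 0.55, adjusted p 0.024). Without RNA control library 1 the RNA value was -0.85 (edgeR adjusted p 0.00078). With DESeq2 on all libraries the RNA value was -1.23 with an adjusted p of 0.043. The RNA call therefore held, but how small its p was depended on the test. The footprint call was lost without RPF HF library 2 (-1.30, edgeR adjusted p 0.085) or 3 (-1.44, adjusted p 0.065). RPF control library 1 held 232 of the 257 control footprint counts of Lars2. Without it, or without RPF HF library 1, Lars2 did not pass the filter on low counts and was not tested. The control levels other than that of RPF control library 1, 12.9 and 5.62 CPM, stood within the range of the HF libraries or below it. Footprints per RNA on Lars2 were at a log2 of -4.37 in HF cells and -4.05 in control cells relative to the median gene, a ratio that 0.139% and 0.126% of genes fell below. Gm42418, annotated at the ribosomal RNA locus, took 9.48%, 8.10% and 7.35% of the counts in total RNA of HF cells, against 13.7%, 12.7% and 11.8% in control cells. In footprints it took 0.0920%, 0.1001% and 0.0634% in HF cells, against 1.12%, 0.0933% and 0.0977% in control cells. RPF control library 1, the footprint library with the highest share of Gm42418, was also the one with the highest Lars2 level. Whether ribosomal RNA reads had a part in the Lars2 counts was not tested.

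**Figure D3:**
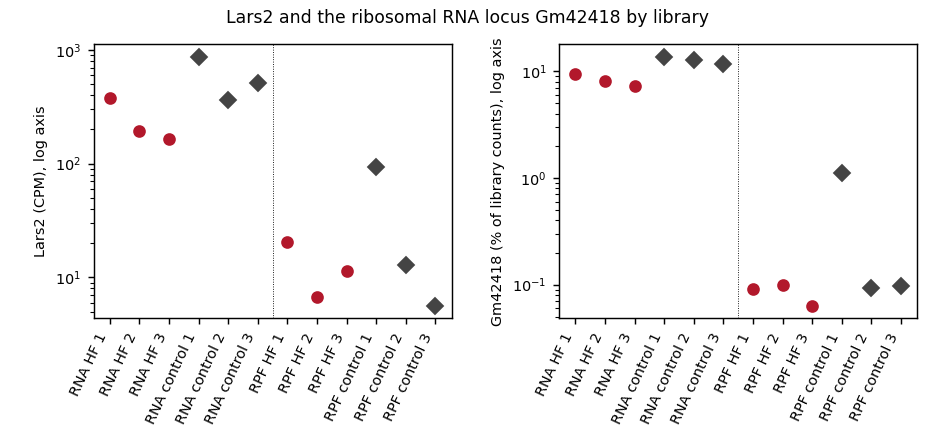
The left panel gives the Lars2 level in CPM and the right panel the share of library counts assigned to Gm42418, both on log axes, for the 3 HF libraries (circles) and then the 3 control libraries (diamonds) of each assay. RPF control library 1, at 94.1 CPM and 1.12%, lies above the other footprint libraries in both panels.

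A total of 14 amino acids have both a cytosolic and a mitochondrial member. For phenylalanine the cytosolic value is that of Farsa, without Farsb. In RNA the cytosolic enzyme had the higher log2 fold change for 11 of the 14, and the median difference, cytosolic minus mitochondrial, was 1.07. In footprints it was the higher for 12 of 14, with a median difference of 1.28. Without leucine the counts were 10 and 11 of 13. For cysteine, leucine and threonine the cytosolic RNA was called higher and the mitochondrial RNA lower. In footprints that held for isoleucine and leucine. Asparagine was the amino acid whose enzymes were both called higher in RNA. For methionine the order was the other way round in both assays, with Mars1 at -0.13 and Mars2 at 0.88 in RNA. Histidine and asparagine in RNA and tryptophan in footprints also had the larger value in the mitochondrial enzyme. Some differences were smaller than the error of the mitochondrial value, so their order is uncertain. In RNA the difference was 0.15 for serine (SE of Sars2 0.55) and -0.34 for asparagine (SE of Nars2 0.47). The counts of pairs are descriptive and carry no test, since genes are not replicates of the treatment.

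**Figure D4:**
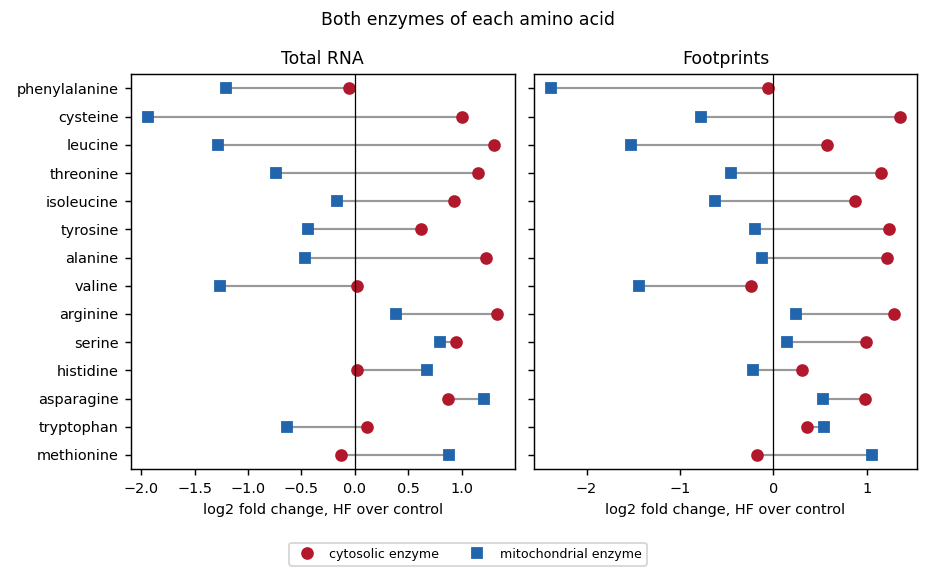
For each of 14 amino acids a line joins the log2 fold change, HF over control, of the cytosolic enzyme (circle) and the mitochondrial enzyme (square), in total RNA and in footprints. Farsa stands for the cytosolic phenylalanine enzyme. Circles lie to the right of squares for 11 amino acids in total RNA and 12 in footprints, and methionine lies the other way in both panels.

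Translational efficiency, footprints relative to total RNA, was called changed for few members. In the test of that ratio over all 12 libraries (the assay by treatment term), 14.4% of 7926 genes were called, 6.13% higher and 8.23% lower. Among the cytosolic members 1 was higher, 1 was lower and 17 were not called, with a median log2 change of 0.00. Across the 19 cytosolic genes the fold changes in RNA and footprints had Pearson's r of 0.907 and Spearman's rho of 0.874. These values describe genes measured in the same cells and scaled by the same libraries. The correlation over all genes was not computed, so they are not shown to be particular to the members. Of the 15 mitochondrial members 0 were called by edgeR and 0 by DESeq2, and 1, Hars2, had an unadjusted edgeR p under 0.05. Their estimates were wide, such as 1.19 for Wars2 (SE 0.60) and -1.17 for Fars2 (SE 0.79). The lack of calls therefore does not show that their efficiency was unchanged.

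Lars, the cytosolic leucine enzyme, whose protein is known as a leucine sensor upstream of mTORC1, was the member called lower in efficiency. Lars RNA was at 247, 256 and 316 CPM in HF cells, against 124, 100.1 and 107 CPM in control cells. Its footprints were at 759, 703 and 720.4 CPM in HF cells, against 529, 495 and 433 CPM in control cells. Both measures rose without overlap, RNA by 1.30 (SE 0.14, edgeR adjusted p 5.4e-12) and footprints by 0.58 (SE 0.10, adjusted p 2.3e-05) on the log2 scale. Efficiency changed by -0.72 (SE 0.17, adjusted p 0.0020). Footprints per RNA on Lars, as a log2 ratio relative to the median gene, were 1.31 ± 0.21 in HF cells and 2.04 ± 0.14 in control cells (SD, n = 3 each). In control cells that ratio was higher than in 97.9% of genes.

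Yars, the tyrosine enzyme, was the member called higher in efficiency. Yars RNA was at 313, 311 and 278 CPM in HF cells, against 177, 200.2 and 213 CPM in control cells. Its footprints were at 648, 632 and 664 CPM in HF cells, against 271, 226 and 337 CPM in control cells. The groups were apart in both assays, with log2 fold changes of 0.61 (SE 0.12) in RNA and 1.24 (SE 0.12) in footprints, and edgeR adjusted p of 3.2e-05 and 4.2e-10. The change in efficiency was 0.64 (SE 0.17, adjusted p 0.0075). The log2 ratio of footprints to RNA relative to the median gene was 1.00 ± 0.13 in HF cells and 0.40 ± 0.28 in control cells.

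The cytosolic members as a class had more footprints per RNA than the median gene. The median of their log2 ratios was 0.95 in HF cells and 0.90 in control cells, and 19 and 18 of 19 lay above the median gene. Wars was the one below it in control cells, at -0.09. The mitochondrial members had medians of 0.43 in HF cells and 0.53 in control cells, with 10 and 9 of 15 above the median gene. Eprs, the glutamate and proline enzyme that HF is known to inhibit, lay beside Lars. Its RNA was at 240.1, 291 and 266 CPM in HF cells, against 97.4, 123 and 106 CPM in control cells, and its log2 fold changes were 1.30 in RNA, 0.71 in footprints and -0.58 in efficiency (edgeR adjusted p 6.1e-12, 8.9e-07 and 0.012).

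**Figure D5:**
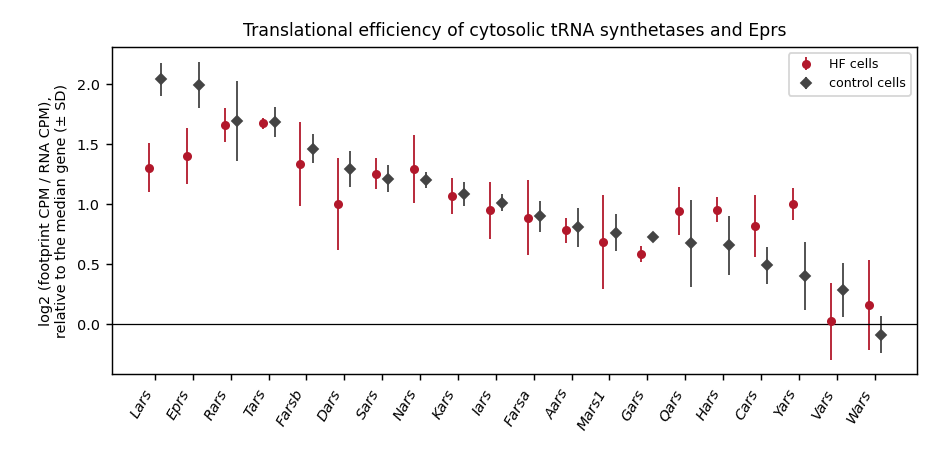
Points give the log2 ratio of footprint CPM to total RNA CPM relative to the median gene, and bars the SD over the 3 library numbers, for HF cells (circles) and control cells (diamonds), ordered by the control value. Lars and Eprs have the highest control values, 2.04 and 2.00, and lower values in HF cells, 1.31 and 1.40, while Yars goes to 1.00 in HF cells against 0.40 in control cells.

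A further 19 genes of tRNA charging and delivery were read from a list. In total RNA 15 were tested, and 1 was higher (6.67% against 22.2% of all genes) and 4 were lower (26.7% against 21.4%). Sepsecs, the final enzyme of selenocysteine-tRNA synthesis, was the one higher, at 40.5, 63.9 and 49.4 CPM in HF cells, against 19.3, 9.87 and 16.8 CPM in control cells, a log2 fold change of 1.68 (edgeR adjusted p 2.1e-05) with no overlap. The 4 lower were the elongation factor subunits Eef1a1, Eef1b2, Eef1d and Eef1g, which deliver charged tRNA to the ribosome or recharge the factor with GTP, at -0.50, -0.41, -0.73 and -0.54. Eef1a1 is known to have near-identical pseudogene copies, which makes its counts uncertain. In footprints, 17 were tested, of which 1 was higher (5.88% against 22.4%) and 2 were lower (11.8% against 20.9%). Sepsecs was at 0.81, and Eef1a1 and Eef1d were at -0.20 and -0.35. Efficiency was tested for 16 and was higher for 3 (18.8% against 6.13% of all genes), Eef1a1, Eef1b2 and Eef1g, at 0.31, 0.57 and 0.75 (edgeR adjusted p 0.017, 0.0012 and 0.0029). Tarsl2, a second cytosolic threonine enzyme, and Eef1e1, a further protein of the complex, were not called where tested.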

How the data were processed

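The MEF were profiled for total RNA and for ribosome footprints in 4 groups of 3 libraries, grouped by their titles. Per the labels' protocols, total RNA was broken by alkaline hydrolysis, footprints came from RNase I digests and the monosome fraction of a sucrose gradient, and ribosomal RNA was depleted from them by a kit; no such step is described for total RNA. Per the submitters' processing notes, the tools were HTSeq, HISAT2 and Bowtie and the genome build was GRCm38, with no versions or roles. The authors deposited whole-number counts per gene, one table per library, with no normalization. Not given in the sources used here are the feature counted, whether strand was used, and how multimapping reads were handled. Overlapping and antisense genes can therefore not be told apart, and upstream reading frames may be part of a footprint count. The tables held 0 entries that name no gene and 0 columns of no sample. Low counts were mostly even: of the gene counts from 1 to 20, 78.0% to 80.3% were even in total RNA libraries and 64.6% to 77.4% in footprint libraries, and no source gives the reason.

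Tests used R 4.3.3 and edgeR 4.0.16, with its quasi-likelihood test (filterByExpr at a minimum count of 10, TMM scaling, Benjamini-Hochberg adjustment over all genes tested, threshold 0.05). The 6 total RNA libraries were fitted with all genes, the 6 footprint libraries with protein-coding genes only, and efficiency as an assay by treatment interaction over 12 libraries. The SE is the fold change divided by the root of its F statistic. Efficiency ratios are footprint CPM over total RNA CPM, scaled within each assay and set relative to the median gene. The pairing of footprint and RNA libraries by number in the SD of these ratios is nominal. The steps were tested on simulated data. Alternatives were other scaling factors, filters, DESeq2 1.42.0, halved counts, a replicate block, other gene sets, and each library left out. Libraries of 1 group differed by more than sampling noise (chi-square per degree of freedom 2.26 to 4.45, or 1.13 to 2.22 if each count stood for a read counted 2 times), so none was counted as a duplicate.

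Members and gene lists were chosen with earlier results of these data known. Values in every library are given for the 6 cytosolic members with the largest rise and all that fell in either assay, the 2 largest mitochondrial changes in each direction, members called in efficiency, and both scaffolds; other members are given by fold change or count. Depth limits the mitochondrial members most. Gene coordinates and promoter windows are RefSeq's on GRCm38.p6, counted from 1 and matched by symbol. Some items are not reported here.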

Additional observations from a re-analysis of the deposited data

How the results depend on the processing

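The counts of cytosolic members called higher or lower in RNA, footprints and efficiency stayed within 1.5 times their reported values under each alternative run, as did those of all genes. The mitochondrial counts moved. With a minimum count of 30, the number higher in RNA was 1, the number lower in RNA was 3 and the number lower in footprints was 1, where fewer members were tested; with DESeq2 the number higher in RNA was 1. Leaving out 1 library at a time gave 0 to 3 higher and 3 to 5 lower in RNA. Leaving out Lars2, an alternative chosen after seeing the data, gave 4 lower in RNA and 3 lower in footprints. Of 19 members called in RNA, 14 kept the call in each alternative in which they were tested and 5 lost it in at least 1 (Fars2, Hars2, Mars2, Nars2 and Tars2). Of 17 called in footprints, 15 kept it wherever tested and 2 lost it (Hars and Lars2; the DESeq2 adjusted p of Lars2 was 0.32). Lars and Yars kept their efficiency calls in all 38 fits run for them, and no called member changed sign; among uncalled members the sign changed for 5 in RNA, 4 in footprints and 17 in efficiency. Called members did not pass the filter on low counts in 5 of these fits in RNA and 7 in footprints, among them Cars2, Fars2 and Nars2 in RNA and Fars2, Lars2 and Vars2 in footprints with a minimum count of 30. With halved counts, Fars2 and Nars2 in RNA and Fars2 and Lars2 in footprints did not pass the filter either. Calls were gained by Gars and Yars2 in RNA and by Vars, Wars, Cars2 and Tars2 in footprints. Upper-quartile factors put the median of all genes at -0.10 in footprints. Libraries with the same number did not deviate together from their group means (correlations -0.03 to 0.02), so the numbers were not read as pairs. With the replicate block, 10 cytosolic members were higher and 2 lower in RNA, 10 and 3 in footprints, and mitochondrial members counted 2 higher and 4 lower in RNA and 1 and 4 in footprints. The block's adjusted p was 0.068 for Fars2 and 0.055 for Hars2 in RNA. The depth of the mitochondrial members limits what could be called. The causes of these differences were not tested.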
